A study of Eriocheir sinensis with 6 samples.

Results

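In the muscle of inter-molt Chinese mitten crabs (Eriocheir sinensis), 178 loci that the authors added outside the EVM gene models were transcribed at a mean of 10 to under 1000 FPKM. FPKM is the number of fragments per kilobase of model, scaled to the size of the library, so that levels can be compared between models of different length. The added loci were selected by 3 criteria: an identifier of an added locus in place of an EVM identifier, a position on one of the 72 placed sequences of the assembly (those with CM names), and the mean FPKM of the 3 RNA libraries. They were 178 of 6667 added loci on placed sequences, and 28671 genes and loci were listed in all, of which 7357 were added loci and 21314 were EVM genes. Of the remaining added loci on placed sequences, 6482 were below 10 FPKM and 7 were at 1000 FPKM or more. The 3574 EVM genes of the same FPKM window on placed sequences served for comparison. A locus is named by its sequence, start and end where it first appears, and by its sequence and start afterwards.

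Muscle came from 3 healthy, farmed, juvenile crabs of WT genotype, all untreated and all in inter-molt, when a crab is neither shedding its shell nor building the next one. Each crab gave 1 RNA-seq library and 1 ATAC-seq library, which maps open chromatin with the Tn5 transposase. No other stage, genotype or treatment is part of the series, so the loci could be set against EVM genes and against each other but not across conditions. The replicates are separate animals.

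A locus outside the gene models can be several things. Automatic annotation rests largely on open reading frames and on similarity to known proteins, and it tends to miss genes that lack either, such as long noncoding RNAs, lineage-specific short proteins and parts of untranslated regions, which assembly of RNA-seq reads then recovers as separate models. A transcription unit of its own usually has a promoter with open chromatin at its start, whereas a transcript that continues from a neighbouring gene shares the promoter of that gene. The files give no product, coding potential or gene name for any locus or EVM gene, so that no role can be stated for single loci and the muscle label could not be checked against marker genes.

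The libraries held 6772294 to 7920094 reads assigned to genes and loci, recovered from the FPKM values, and 49574 to 57320 peaks. In crab 3 the library size used by the authors was 0.491 times the assigned reads, against 1.04 and 1.27 times in crabs 1 and 2. Setting all libraries to plain totals of assigned reads therefore moved log2 levels by 0.05, 0.35 and −1.03 in crabs 1, 2 and 3. Statements on which crab was highest are on the deposited scale unless plain totals are named.

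The rule placed the lower edge of the set within a continuous range of levels. The loci just below 10 FPKM had means of 9.97 and 9.998 FPKM, and those just above it had 10.03 and 10.2 FPKM. At the upper edge there was a gap, with 516 and 617 FPKM at the last loci inside the window and 1107 and 1689 FPKM at the first outside it. Most of the set was near the lower edge. Of the 178 loci, 115 had a mean of 10 to under 30 FPKM, 45 of 30 to under 100 FPKM and 18 of 100 FPKM or more. The median was 20.1 FPKM for the added loci, against 22.9 FPKM for the EVM genes of the window, and the quartiles of the added loci were 13.7 and 38.4 FPKM. All 178 loci reached 1 FPKM in crab 3 and 175 reached it in each of the other crabs. In every crab 175 loci reached 1 FPKM, against 3544 of 3574 EVM genes. At 10 FPKM or more in every crab were 92 loci, against 2386 EVM genes. The median over loci of the lowest read count in any library was 123.5 reads.

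The loci were spread over 63 of the 72 placed sequences, with 90 on the plus strand and 88 on the minus strand. The most were on CM024145.1, with 8 loci, and CM024099.1, CM024106.1 and CM024119.1 had 7 each. Beside the 7 loci of CM024106.1 stood 18 EVM genes of the window, whereas CM024145.1 had 83 such genes beside its 8 loci. When loci less than 10 kb apart were joined, 22 of them fell into 10 runs and 156 stood alone.

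Beside the EVM models of the window, the models of the added loci were long in sequence and compact on the genome. Their median length, the bases of the model that reads were counted on, was 1924 bases, against 1218 bases for EVM genes of the window and 1012 bases for added loci below the window. Their median span from start to end was 4126 bases, against 7914 bases for EVM genes of the window and 2818 bases for added loci below it. The span was 2.10 times the length at the median added locus, against 5.78 times at the median EVM gene. Single-exon models, those whose length equalled their span, made up 18 of 178 added loci (10.1%) and 367 of 3574 EVM genes (10.3%). Any excess of span over length was counted as an intron. Models with very little outside them, such as 8510 bases in a span of 8532 bases, are thus among those with an intron. In models with an intron, a median of 66.4% of the span lay outside the model at added loci, against 85.0% at EVM genes. A span above 50 kb was found at 8 added loci and at 246 EVM genes. These are properties of the models and were described without a test.

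**Figure D1:**
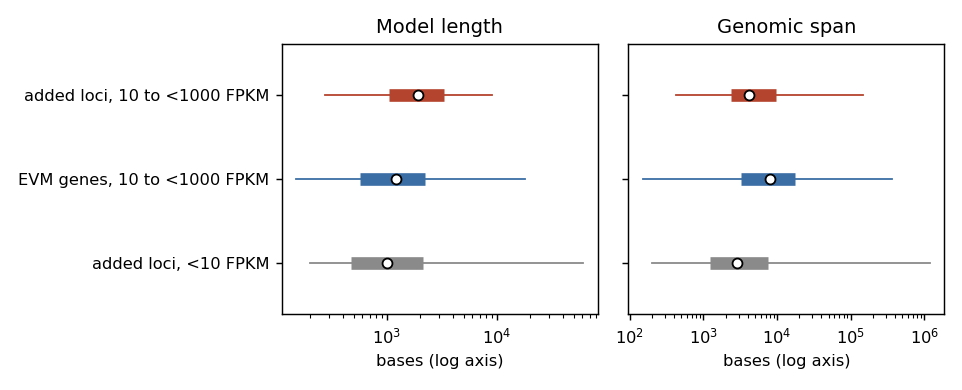
Model length (left) and genomic span (right) in bases on log axes for added loci of 10 to under 1000 FPKM, EVM genes of the same window and added loci below 10 FPKM. White points are medians, thick bars join the quartiles and thin lines join the lowest and highest values, and the added loci of the window have a median length of 1924 bases and a median span of 4126 bases.

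The kinds of model also stood apart in whether their length was divisible by 3, as the length of a coding sequence is. This was so for 54 added loci (30.3%), against 2470 EVM genes (69.1%) of the window, and for 2067 added loci (31.9%) below it. The added loci showed no excess of such lengths over 1 in 3, while the EVM genes did. Where a model is a coding sequence without untranslated ends, its start lies inside the transcript, which bears on every distance measured from the start or end of a model. Its length and span then leave out those ends. The lengths and spans of added loci and EVM genes may therefore not be like measures.

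The extremes of length show how varied the models are. The longest was CM024138.1:3353703-3370791 (plus strand), with 8987 bases and 64.4, 53.5 and 70.7 FPKM in crabs 1, 2 and 3, a narrow spread at 2469 to 4527 reads. Next came CM024125.1:3639343-3681055 (minus strand) with 8643 bases and 9.40, 21.9 and 16.5 FPKM, and CM024166.1:18613842-18622373 (minus strand) with 8510 bases and 20.1, 18.7 and 7.59 FPKM. Almost none of the span of CM024166.1:18613842 was intron, its span being 8532 bases, whereas introns took 79.3% of the span of CM024125.1:3639343. The shortest model was CM024139.1:8636028-8639181 (plus strand) with 276 bases and 23.7, 30.4 and 77.4 FPKM, which came from only 46, 79 and 83 reads. Few reads also stood behind CM024153.1:828762-837665 (plus strand), of 372 bases, at 19.5, 9.7 and 26.3 FPKM (51, 34 and 38 reads), and CM024113.1:4111296-4114857 (plus strand), of 376 bases, at 19.7, 11.3 and 10.3 FPKM (52, 40 and 15 reads). At short models a level inside the window thus rested on few reads.

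The widest locus was CM024147.1:6677807-6825039 (minus strand), with a span of 147233 bases and a model of 7507 bases. Its level was 6.73, 60.9 and 6.99 FPKM in crabs 1, 2 and 3, so that crab 2 stood 9.05-fold above crab 1 and the other crabs were close together. Crab 2 was the highest on plain totals too, which gave 6.98, 77.6 and 3.43. Its nearest EVM gene, evm.TU.CM024147.1.222, had 23.9, 23.4 and 12.0 FPKM and did not share that pattern. The next widest were CM024106.1:3983389-4058677 (minus strand), of 75289 bases, at 24.0, 14.1 and 7.68 FPKM, and CM024137.1:5858495-5927667 (minus strand), of 69173 bases, at 4.84, 8.18 and 17.5 FPKM. At CM024137.1:5858495, 99.2% of the span lay outside a model of 558 bases.

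None of the 178 loci overlapped an EVM gene on either strand, so the description as loci outside the gene models holds for all of them. Of EVM genes in the window, 210 overlapped another EVM gene, and of added loci below it, 46 overlapped one. Overlap with other added loci was seen at 34 of the 178, while 2365 of 6482 added loci below the window overlapped another model of either kind. The median gap to the nearest EVM gene was 1594 bases for the added loci, against 1362 bases for EVM genes and their nearest other EVM gene and 4155 bases for added loci below the window. The quartiles of the gap were 264 and 5708 bases. A gap under 1 kb was found at 77 of the 178 loci (43.3%), against 41.0% of EVM genes in the window and 23.4% of added loci below it. At 29 loci (16.3%) the gap was under 100 bases, against 13.7% of EVM genes and 7.28% of added loci below the window. The medians leave out the 210 EVM genes and the 46 added loci below the window that overlap an EVM gene, and the shares under 1 kb and under 100 bases do not count them as near.

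The arrangement seen most often was end against end. The nearest EVM gene was on the same strand for 70 loci (39.3%), against 60.9% of EVM genes and 50.6% of added loci below the window. Tail to tail, with the ends of both models facing each other, were 73 loci (41.0%), against 19.8% of EVM genes and 32.9% of added loci below the window. Loci downstream of their neighbour on its strand numbered 38 (21.4%), against 30.4% of EVM genes. Upstream on the same strand were 32 loci (18.0%), against 30.1%, and head to head, with the starts facing each other, were 35 loci (19.7%), against 13.8%. Among the 77 loci with a gap under 1 kb, 43 were tail to tail, 17 downstream, 12 head to head and 5 upstream, against 250, 564, 128 and 523 of 1465 EVM genes. The sources used here do not say how the strand of the added loci was assigned or whether reads were counted by strand, so that reads of facing models that run into each other cannot be told apart.

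**Figure D2:**
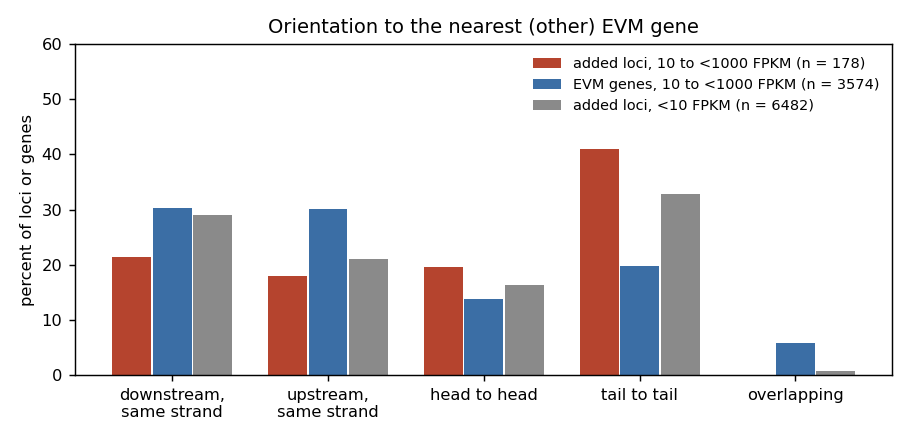
Percent of added loci of the window, EVM genes of the window and added loci below 10 FPKM (bars from left to right in each set) in each arrangement with the nearest EVM gene, or the nearest other EVM gene for EVM genes. Tail to tail holds 41.0% of the added loci of the window, against 19.8% of the EVM genes, and no added locus of the window overlaps an EVM gene.

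The level of the neighbouring EVM gene varied with the arrangement. Over all 178 loci, 87 (48.9%) had a neighbour at 10 FPKM or more, against 47.8% of EVM genes and 13.2% of added loci below the window, and 114 loci (64.0%) were above their neighbour, against 75.7% of EVM genes. For the 43 tail-to-tail loci with a gap under 1 kb, the median was 17.0 FPKM at the locus and 20.8 FPKM at the neighbour, and the median gap was 93 bases. For the 17 downstream loci within 1 kb the median was 16.1 FPKM at the locus and 23.7 FPKM at the neighbour. Head to head, at any distance, the locus had a median of 19.8 FPKM and its neighbour 1.60 FPKM, and 31 of 35 loci were above the neighbour. Upstream on the same strand the medians were 32.1 FPKM at the locus and 4.52 FPKM at the neighbour, with 28 of 32 loci above it. Head-to-head EVM genes were much alike, with medians of 24.5 and 2.68 FPKM and 432 of 494 above the neighbour. Upstream EVM genes had medians of 22.4 and 14.6 FPKM, with 705 of 1076 above it. Within 1 kb, the EVM medians were 26.3 and 10.7 FPKM tail to tail and 22.2 and 17.1 FPKM downstream. The window holds locus or gene, but not its neighbour, at 10 FPKM or more. A neighbour at 10 FPKM or more was found at 48 of 73 tail-to-tail, 23 of 38 downstream, 8 of 35 head-to-head and 8 of 32 upstream loci at any gap, against 255 of 708, 625 of 1086, 120 of 494 and 647 of 1076 EVM genes. With a gap under 1 kb the counts were 34 of 43, 14 of 17, 3 of 12 and 1 of 5 loci, against 128 of 250, 396 of 564, 43 of 128 and 402 of 523 EVM genes.

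The 60 loci within 1 kb past the end of their EVM neighbour, tail to tail or downstream, were next set against the other 118, a grouping made after the values above were known. Of the 60, 48 (80%) had a neighbour at 10 FPKM or more, against 39 of 118 (33.1%), and among EVM genes this was so for 64.4% of the 814 past an end and 42.9% of the others. Below their neighbour were 42 of the 60 (70%), against 22 of the 118 (18.6%). The ratio of locus to neighbour, log2 of (locus FPKM + 1) over (neighbour FPKM + 1), ranged over a median of 0.71 between the crabs at the 60 loci, against 1.44 at the others. This range was under 1, which is less than 2-fold, at 42 of the 60 loci (70%) and at 39 of the 118 (33.1%). For EVM genes past the end of another EVM gene the range was under 1 in 72.9%, although only 28.8% of those were below their neighbour. The groups of added loci differed in other ways too. The locus's own range had a median of 1.285 at the 60 loci and 1.644 at the others. The median level of the neighbour was 23.4 and 4.21 FPKM. Where a neighbour is at 0 in every crab, the range of the ratio equals that of the locus. How far this enters the contrast was not tested. A promoter peak in all 3 ATAC libraries was found at 8 of the 60 loci (13.3%), against 40 of the 118 (33.9%), and no promoter peak in any library at 31 (51.7%), against 37 of the 118. EVM genes past an end also had fewer, with a peak in all 3 libraries at 28.1%, against 48.6% of the others, and in none at 46.2%, against 26.6%.

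Pairs of this kind include the most abundant loci of the set. The locus CM024134.1:18242643-18243219 (minus strand, 495 bases) had 558, 502 and 792 FPKM in crabs 1, 2 and 3, the highest mean of the set at 617 ± 154 FPKM (SD, n = 3). It lies 32 bases from the end of evm.TU.CM024134.1.396, which runs on the plus strand and had 1640, 1496 and 2920 FPKM. Locus and gene were both highest in crab 3 and their log2 ratio was −1.56, −1.57 and −1.88. No peak was called at the promoter or within this locus in any library, while the promoter of the EVM gene had a peak in 2 of 3.

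Nearly as abundant was CM024156.1:12140039-12141019 (minus strand), a single-exon model of 981 bases with 558, 408 and 583 FPKM. It begins 191 bases past the end of evm.TU.CM024156.1.354 on the same strand, a gene with 1454, 755 and 1166 FPKM and a promoter peak in all 3 libraries. The locus itself had no peak in its promoter or body, and its log2 ratio to the gene was −1.38, −0.88 and −1.0. Both were lowest in crab 2.

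The 4 next most abundant loci within 1 kb downstream had ratios that ranged over 0.34 to 1.19. At CM024099.1:8185203-8185845 (minus strand), 264 bases past evm.TU.CM024099.1.260, the level was 18.1, 22.5 and 71.0 FPKM, beside 43.3, 41.9 and 192 FPKM at the gene, both high in crab 3. At CM024130.1:2701368-2702488 (minus strand), 510 bases past evm.TU.CM024130.1.51, it was 26.6, 15.2 and 59.6 FPKM, beside 54.3, 66.6 and 133 FPKM. At CM024145.1:17586064-17601185 (minus strand), 220 bases past evm.TU.CM024145.1.589, it was 28.9, 29.1 and 10.5 FPKM, beside 50.4, 51.6 and 23.9 FPKM, both low in crab 3. Of these loci only CM024166.1:9988381-9990998 (plus strand), 118 bases past evm.TU.CM024166.1.375, was above its neighbour in any crab, at 37.1, 26.3 and 9.32 FPKM beside 23.9, 18.7 and 14.4 FPKM. None of the 5 downstream loci had a promoter peak in any library.

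Tail to tail, CM024131.1:6491401-6496749 (plus strand) followed its neighbour through a wide change, with 133, 133 and 23.7 FPKM beside 125, 136 and 39.1 FPKM at evm.TU.CM024131.1.232, 362 bases away. Its own range was 5.63-fold, but the ratio ranged over only 0.79 on the log2 scale. At CM024126.1:5683755-5685781 (plus strand), 41 bases from evm.TU.CM024126.1.129, the levels were 52.8, 32.9 and 55.3 FPKM beside 97.8, 45.2 and 127 FPKM, locus and gene both lowest in crab 2. Both loci were named because they had no peak in promoter or body, so this lack is no finding about such pairs. Both neighbours had a promoter peak in all 3 libraries. Among all 43 tail-to-tail loci within 1 kb, 20 (46.5%) had no promoter peak in any library and 6 (14.0%) had one in all 3. Of the 250 EVM genes in this arrangement, these were 66 (26.4%) and 111 (44.4%). The ratio to the neighbour ranged over less than 1 at 30 of the 43 loci, against 141 of the 250 EVM genes.

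Over all 178 loci the ratio to the neighbour ranged over at least 2 (4-fold) at 40 loci (22.5%), against a background of 17.7% of EVM genes and their neighbours. These were 3 of the 60 loci within 1 kb past the end of the neighbour and 37 of the other 118. Among EVM genes such ratios were found at 62 of the 814 past an end and 572 of the other 2760. With crab 3 left out the count of added loci was 3, so that this spread rests on the library of crab 3. Scaling cancels in the ratio except for the added 1 FPKM, and plain totals gave 37 loci.

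At the other end of the range stood loci with no EVM gene near. The most isolated was CM024105.1:992733-993150 (minus strand), a single-exon model of 418 bases, 350272 bases from evm.TU.CM024105.1.18. Its level was 7.83, 5.33 and 35.1 FPKM in crabs 1, 2 and 3, from 23, 21 and 57 reads, and its promoter peak was enriched 21.5-, 24.6- and 17.8-fold over local background, the highest mean fold enrichment of any added locus of the window with a peak in all 3 libraries. Open chromatin was thus found there in every crab although the reads were few. The promoter window overlapped that of another added locus, so the peak cannot be assigned to CM024105.1:992733 alone.

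The next most isolated loci had no or little open chromatin at the promoter. At CM024158.1:8303855-8306235 (plus strand), 97045 bases from an EVM gene, the level was 10.5, 25.6 and 26.1 FPKM, and at CM024145.1:15597874-15603881 (minus strand), 35411 bases away, it was 7.81, 4.06 and 50.5 FPKM, both without a promoter peak. At CM024127.1:4190757-4192748 (plus strand), 34867 bases away, it was 58.0, 14.5 and 20.0 FPKM, with a peak of 2.64-fold in crab 3 alone. The crab with the highest level differed among these loci, as crab 1 led at CM024127.1:4190757 and crab 3 at CM024145.1:15597874. At CM024106.1:4023606-4030074 (minus strand), 44450 bases away, it was 12.2, 64.1 and 249 FPKM, a 20.4-fold range with no peak in promoter or body in any library. This locus lies inside the span of CM024106.1:3983389 on the same strand, in a run of 3 loci with CM024106.1:4039078-4065745 (plus strand). Its order was the reverse of theirs, since CM024106.1:3983389 had 24.0, 14.1 and 7.68 FPKM and CM024106.1:4039078 had 18.2, 11.5 and 9.23 FPKM.

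Other runs of loci were alike in part. On CM024102.1, CM024102.1:227773-230662 had 73.4, 55.4 and 106 FPKM and CM024102.1:231817-234763, also on the plus strand, 43.0, 35.2 and 68.7 FPKM, so that both were lowest in crab 2 and highest in crab 3. On plain totals both were instead lowest in crab 3, with 76.2, 70.6 and 51.9 and with 44.7, 44.8 and 33.7. Both also had a promoter peak in crabs 1 and 3 and none in crab 2. Over all added loci crab 2 had the fewest promoter peaks, at 30.3%, against 52.8% in crabs 1 and 3. On CM024133.1, CM024133.1:11095453-11097780 (minus strand) had 16.6, 22.6 and 7.03 FPKM and CM024133.1:11097837-11099713 (plus strand), which starts head to head with it, 32.8, 34.2 and 9.0 FPKM, both lowest in crab 3. The third locus of this run, CM024133.1:11101070-11102908 (plus strand), was instead highest in crab 3, with 9.57, 12.6 and 32.4 FPKM. All 3 had the same promoter fold enrichment, 2.75 in crab 1 and 4.33 in crab 3 with no peak in crab 2, since their promoter windows overlap.

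Between crabs the added loci varied widely. The criterion for a difference between crabs was a range of log2(FPKM + 1) of at least 2, a 4-fold difference on that scale, and it was met by 53 of 178 loci (29.8%), against a background of 21.1% of EVM genes and 21.5% of all genes and loci in the window. The median range was 1.53 at the added loci and 1.27 at EVM genes. The same values had selected the loci, so this is a description with no test. By level, the shares were 23.5% of added loci and 16.2% of EVM genes at 10 to under 30 FPKM, 35.6% and 22.7% at 30 to under 100 FPKM, and 55.6% and 38.7% at 100 FPKM or more.

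Crab 3 carried most of this spread. It was the highest crab at 38 of the 53 loci, with crab 1 highest at 9 and crab 2 at 6. The EVM genes were much alike, with 530, 124 and 100 of 754 highest in crabs 3, 1 and 2. Leaving crab 3 out left 3 of 178 loci (1.69%), against 2.24% of EVM genes. Leaving out crab 1 or crab 2 left 38 and 40 loci. On plain library totals 71 loci (39.9%) met the criterion, against 26.7% of EVM genes, but crab 3 was then the highest at only 11 of them. Among EVM genes it was then the highest at 83 of 955. With median-ratio scaling crab 3 was the highest at 44 of 58 added loci and at 633 of 819 EVM genes. Over all 178 loci crab 3 was the highest at 94 (52.8%) with the deposited values, against 55.15% of EVM genes. On plain totals it was the highest at 39 loci (21.9%), against 21.2%, and crab 2 led at 101 (56.7%), against 50.9%. Across the loci, levels in crabs 1 and 2 had a Spearman rho of 0.74, against 0.82 across EVM genes, whereas crab 3 had 0.24 with crab 1 and 0.29 with crab 2, against 0.53 and 0.55. These coefficients describe loci in a window chosen on the same levels, and loci are not independent replicates. A single library stands for each crab, so the animal and the library cannot be told apart.

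**Figure D3:**
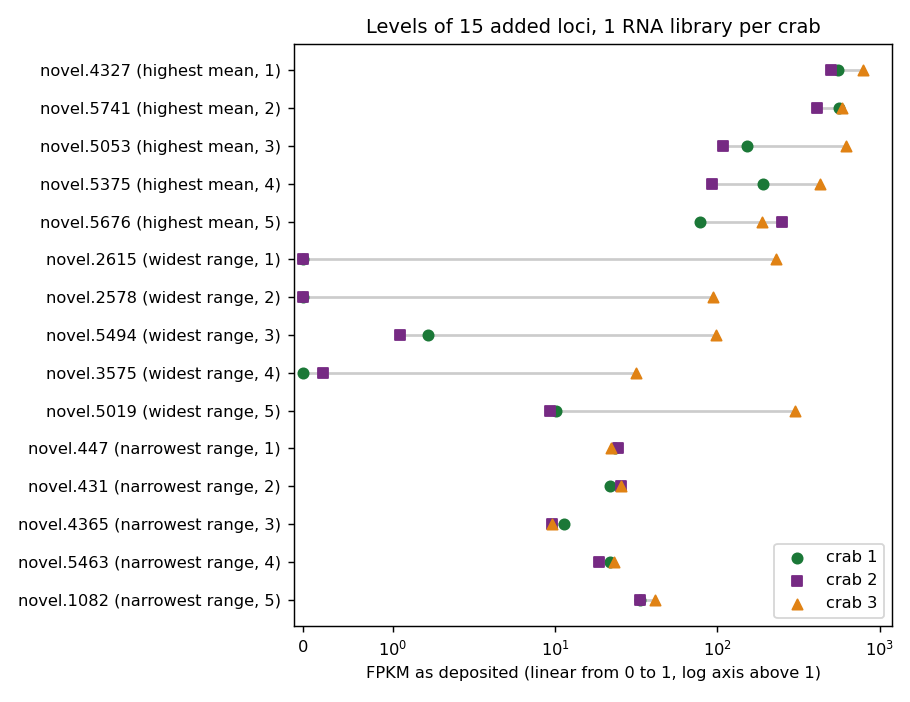
Deposited FPKM of 15 added loci in the RNA library of each crab, with the 5 highest mean levels, the 5 widest and the 5 narrowest ranges from top to bottom, each under its identifier in the deposited table and in the order of the text; the axis is linear from 0 to 1 and logarithmic above, and grey lines join the lowest and highest crab. Crab 3 (triangles) is the highest at all 5 loci of widest range, at 31.6 FPKM or more, and the first 2 of these are at 0 in crabs 1 and 2.

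The 5 widest ranges belonged to loci with 0 to 58 reads in crabs 1 and 2. At CM024119.1:19929896-19937509 (minus strand, 2116 bases) the level was 0, 0 and 231 FPKM, from 0, 0 and 1899 reads. A count of 0 allows up to 3 reads, equal to 0.202 and 0.151 FPKM in crabs 1 and 2, so the level in crab 3 was at least 1145-fold higher than in either. No peak was called at its promoter in any library, and a peak within the locus was called in all 3.

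On the opposite strand of the same stretch lies CM024119.1:19929909-19938067 (plus strand, 575 bases), with 0, 0 and 93.5 FPKM from 0, 0 and 209 reads, at least 126-fold higher in crab 3. Its promoter had a peak of 3.81-fold in crab 1 and 3.42-fold in crab 2, the crabs without a read, and none in crab 3. The nearest EVM gene of both, evm.TU.CM024119.1.520, at a gap of 5088 bases from CM024119.1:19929896, was likewise at 0, 0 and 23.9 FPKM. The models of this stretch were therefore read in 1 crab alone.

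Further loci of wide range were also highest in crab 3. At CM024153.1:4087314-4092846 (minus strand) the level was 1.65, 1.11 and 98.2 FPKM (10, 9 and 329 reads), an 88.6-fold difference between the highest and lowest crab. It lies within the span of CM024153.1:4081134-4140155 (plus strand), which had 11.4, 12.6 and 69.6 FPKM and was also highest in crab 3. At CM024129.1:7273583-7276456 (plus strand) the level was 0, 0.23 and 31.6 FPKM (0, 2 and 115 reads), with no peak in any library. At CM024145.1:11922628-11923493 (minus strand) it was 10.1, 9.26 and 300.2 FPKM (47, 58 and 776 reads), a 32.4-fold difference, with a promoter peak of 3.13-fold in crab 1 only. All 5 loci of widest range were highest in crab 3 under plain totals too, where their ranges were 3.70 to 6.84 on the log2 scale, against 4.88 to 7.86 as deposited.

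The loci of narrowest range were even on the authors' scale but not on plain totals. At CM024099.1:3275868-3288318 (plus strand, 3779 bases) the level was 23.5, 24.6 and 22.1 FPKM, or 23.4 ± 1.22 FPKM (SD, n = 3), yet plain totals gave 24.4, 31.3 and 10.9. At CM024099.1:204541-206494 it was 21.9, 25.6 and 25.4 FPKM, and at CM024135.1:16976601-16978808 it was 11.4, 9.63 and 9.54 FPKM. At CM024153.1:6464631-6468596 it was 21.9, 18.7 and 22.9 FPKM and at CM024103.1:2747449-2749023 it was 33.4, 33.1 and 41.1 FPKM. The 5 ranges of 0.14 to 0.30 became 1.02 to 1.45 on plain totals. Only CM024099.1:204541 had a promoter peak among them, in crab 1.

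The remaining loci among the 5 of highest mean were not beside an active gene. At CM024146.1:2671921-2691759 (plus strand), 17279 bases from an EVM gene of 3.86, 3.87 and 6.49 FPKM, the level was 152, 109 and 621 FPKM, and its promoter peak was enriched 6.94-, 8.44- and 9.23-fold. Introns took 96.5% of its span and the model had 699 bases. At CM024151.1:3575473-3578448 (minus strand), head to head at 4566 bases with a gene of 1.03, 0.98 and 1.81 FPKM, it was 192, 92.1 and 427 FPKM with a promoter peak of 2.97-, 3.56- and 2.90-fold. At CM024155.1:5122107-5124503 (minus strand) it was 78.2, 252 and 189 FPKM, with a peak of 3.05-fold in crab 1 alone. Crab 3 was the highest at CM024146.1:2671921 and CM024151.1:3575473, and crab 2 at CM024155.1:5122107. Distant loci with a promoter peak and close loci without one were thus both found among the most abundant.

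Promoter peaks, which the selection did not use, were next compared with EVM genes of the window. The promoter was the start of the model with 2 kb on either side, and a peak had to overlap it by at least 1 base. The start rests on the deposited strand, and how that strand was assigned to added loci is unknown. At a locus with the wrong strand, start and end would be exchanged, which was not tested. A promoter peak was found at 52.8%, 30.3% and 52.8% of the added loci in crabs 1, 2 and 3, against 59.3%, 48.1% and 62.1% of the EVM genes. The share was lower at the added loci in 3 of 3 libraries, 45.3% ± 13 against 56.5% ± 7.38 (SD, n = 3 libraries), with a difference of −11.2 ± 5.90 percentage points. An exact two-sided sign-flip permutation test over the 3 libraries gave p = 0.25, the smallest value that 3 libraries allow, so the threshold of 0.05 could not be reached. Added loci below the window had a promoter peak at 24.1% ± 2.69 (SD, n = 3 libraries).

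Peaks in every library were also less frequent at the added loci. A promoter peak in all 3 libraries was present at 48 loci (27.0%), against backgrounds of 43.9% of EVM genes in the window and 23.0% of all genes and loci. A peak in none was found at 68 loci (38.2%), against 31.1% of EVM genes. A peak in 2 libraries was seen at 36 loci and in 1 library at 26. Of the 68 loci without a promoter peak, 22 had a peak within the locus in at least 1 library and 46 had none anywhere. Of the 1110 EVM genes without one, these were 354 and 756. In the peaks that were called, the median fold enrichment at added loci was 3.54 ± 0.476, against 4.16 ± 0.618 at EVM genes (mean of library medians ± SD, n = 3). The median level was 21.7 FPKM at loci with no promoter peak, 24.5 with a peak in 1 library, 18.6 with 2 and 16.2 FPKM with 3. By level, no promoter peak was found at 41 of 115 loci (35.7%) at 10 to under 30 FPKM, 24 of 45 (53.3%) at 30 to under 100 FPKM and 3 of 18 (16.7%) at 100 FPKM or more, against 34.7%, 29.3% and 19.1% of EVM genes. The count of 48 was 81 with crab 2 left out and 25 where peaks had to reach a −log10 q of 5.

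**Figure D4:**
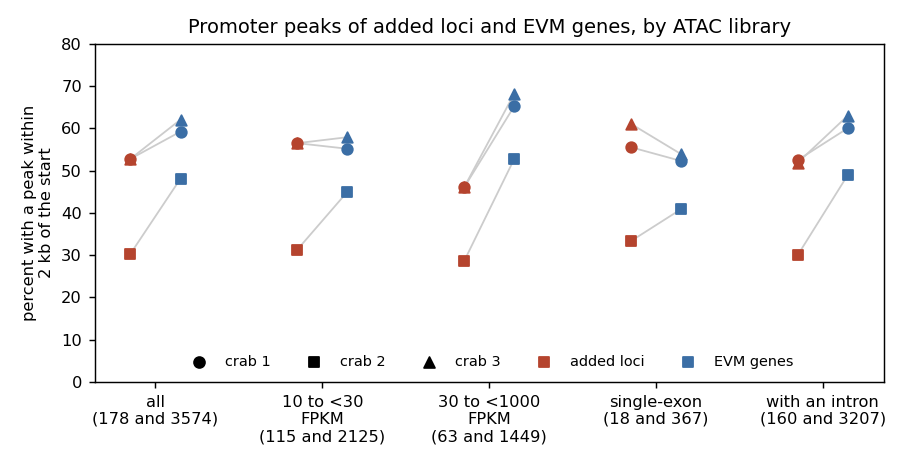
Percent of features with an ATAC peak within 2 kb of the start, for added loci (left point of each pair) and EVM genes of the window (right point), per ATAC library (circle, square and triangle for crabs 1, 2 and 3) and with grey lines joining the values of a library; numbers below are added loci and EVM genes. Over all loci the added loci are lower in 3 of 3 libraries, and crab 2 is the lowest library in every set.

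The per-library difference was larger in size at 30 FPKM or more than below it, but not on every measure. At 10 to under 30 FPKM a promoter peak was found at 48.1% ± 14.6 of 115 added loci and 52.7% ± 6.82 of 2125 EVM genes, a difference of −4.59 ± 7.99 percentage points that was within the spread between libraries (p = 0.5, exact sign-flip permutation test, n = 3 libraries). At 30 to under 1000 FPKM it was found at 40.2% ± 10.1 of 63 added loci and 62.0% ± 8.20 of 1449 EVM genes, a difference of −21.8 ± 2.50 percentage points in the same direction in 3 of 3 libraries. A peak in all 3 libraries was found at 28.7%, 24.4% and 22.2% of the added loci and at 40.2%, 46.7% and 54.0% of the EVM genes at 10 to under 30, 30 to under 100 and 100 FPKM or more. Loci with no peak in any library went the other way at the top, as their share was below that of EVM genes at 100 FPKM or more (16.7% against 19.1%), with 18 loci. Whether the bands differ from each other was not tested.

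By structure, the 160 added loci with an intron had a promoter peak in 44.8% ± 12.8, against 57.3% ± 7.41 of 3207 EVM genes with an intron, a difference of −12.6 ± 5.83 percentage points. Models whose span exceeds their length by only a few bases are counted here as having an intron. The 18 single-exon loci had one in 50.0% ± 14.7, against 49.0% ± 7.13 of 367 single-exon EVM genes, a difference of 0.95 ± 7.61 percentage points with no common direction. A promoter window overlapped that of another gene or locus at 76 added loci (42.7%), against 35.6% of EVM genes. Among features whose window was not shared, 44.4% ± 11.5 of 102 added loci and 54.8% ± 7.36 of 2303 EVM genes had a peak, a difference of −10.4 ± 4.13 percentage points. Around the other end of the model the order turned, at 28.1% ± 7.02 of added loci and 24.6% ± 5.80 of EVM genes, a difference of 3.51 ± 1.85 percentage points that was positive in 3 of 3 libraries.

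The position of peak summits showed where the open chromatin lay. In the 500 bases before the start a summit was found at 12.4% ± 5.15 of added loci, against 26.2% ± 4.92 of EVM genes, and in the 500 bases after it at 18.9% ± 5.19, against 28.9% ± 4.53 (SD, n = 3 libraries). From 500 to 1000 bases after the start the values were 10.3% ± 1.62 at added loci and 8.34% ± 1.58 at EVM genes. In the other bins within 5 kb of the start, 3.37% to 7.30% of added loci held a summit. The added loci therefore had a maximum at the start, in the same bin as the EVM genes but lower. At the end of the model the 500 bases before and after it held a summit at 5.43% ± 1.30 and 7.12% ± 2.27 of added loci, against 5.89% ± 1.37 and 4.61% ± 1.24 of EVM genes, which is no such maximum.

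**Figure D5:**
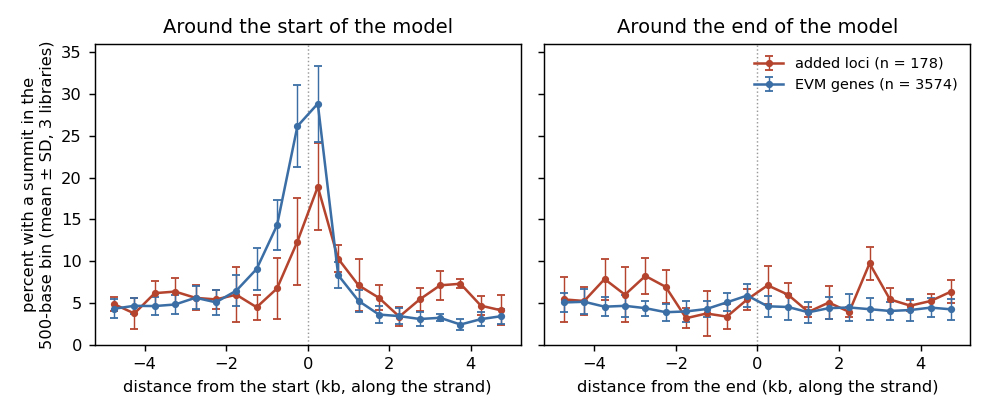
Percent of added loci and of EVM genes with an ATAC peak summit in each 500-base bin, by distance in kb along the strand from the start (left) and the end (right) of the model; points are means and bars SDs over the 3 ATAC libraries. Both sets have their highest value in the 500 bases after the start, 18.9% of added loci and 28.9% of EVM genes, and neither has such a maximum around the end.

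The 5 loci with the most open promoters had means from near the lower edge of the window to the third highest of the set. After CM024105.1:992733 came CM024101.1:641658-644914 (minus strand, single-exon, 3257 bases), with a fold enrichment of 8.51, 8.04 and 13 in crabs 1, 2 and 3 and a level of 4.76, 13.7 and 20.1 FPKM. It lies 11306 bases from an EVM gene listed at 0 in every crab. At CM024119.1:14284698-14301595 (minus strand) the fold enrichment was 9.51, 7.73 and 10.8, while the level was 17.4, 14.5 and 1.4 FPKM (358, 400 and 16 reads). Crab 3 thus had the highest fold enrichment and the lowest level there. At CM024097.1:8413761-8425710 (minus strand) the fold enrichment was 8.13, 6.50 and 11.9, with 7.99, 7.55 and 17.2 FPKM. The set of 5 is completed by CM024146.1:2671921, with 152, 109 and 621 FPKM. In all of these except CM024105.1:992733 the fold enrichment was highest in crab 3, and the level was highest there in all except CM024119.1:14284698. Fold enrichment was higher in crab 3 in general. The medians of promoter peaks in crabs 1, 2 and 3 were 3.2, 3.3 and 4.1 at added loci and 3.8, 3.8 and 4.9 at EVM genes.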

How the data were processed

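Muscle RNA-seq and ATAC-seq libraries of 3 crabs each were used, grouped by the labels, 6 libraries in all. For RNA-seq, the authors trimmed reads with Trimmomatic, aligned them with HISAT2 and counted uniquely mapped reads per gene with featureCounts, versions 2.0.5 and 1.5.0-p3 by the processing notes of the submitters. The deposited values are FPKM, and the deposited model lengths and positions are in bases. The sources used here do not say how the added loci were assembled. FPKM times length was a whole multiple of 1 step per library within 1% of the read count for 100% of values, which gave the reads, but no count model was fitted. For ATAC-seq, the authors used skewer and BWA, kept reads of mapping quality of at least 13 and called peaks per library with MACS2. The fold enrichment (a ratio at the summit), −log10 p, −log10 q and score of each peak are the deposited values. The lowest −log10 q was 1.30. The sources do not say whether reads were shifted for transposase binding. The peak names of the crab 3 list carry another number, so its link to crab 3 rests on the sample record. The files hold no ATAC read totals, so the depth behind a peak is unknown.

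Positions are counted from 1 on the sequences named in the files. The nearest EVM gene was that with the fewest bases between the models. Summits of 1 peak were merged and the highest fold enrichment kept. Levels were compared as log2(FPKM + 1), which understates changes of low loci. The limit of 3 reads for a count of 0 covers counting error only. Shares of promoter peaks were tested by an exact two-sided sign-flip permutation over the 3 libraries. Plain totals divide reads by the library's assigned reads, and median-ratio scaling by the median ratio to the geometric mean of the libraries. Named loci were the 5 highest in level, 5 farthest from an EVM gene, 5 of widest and 5 of narrowest range, 5 of highest promoter fold enrichment with a peak in all 3 libraries, 5 highest without any peak, 5 highest within 1 kb downstream of an EVM gene, 3 longest, 3 widest in span and 3 shortest models, those at the edges of the window and runs of loci. The loci and these rules were chosen with earlier results of these data known. The RefSeq table of the species matched 0 of the loci, so no sequence is printed. Functions were tested on simulated data. Tools were pandas 2.3.3, numpy 2.4.6, scipy 1.17.1 and matplotlib 3.10.9 in python 3.11.15.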

Additional observations from a re-analysis of the deposited data

How the results depend on the processing

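The window held 178 added loci, 171 on plain library totals (163 shared), 155 with median-ratio scaling and 177 to 186 with 1 crab left out. The number differing between crabs, 53, was 71 on plain totals, 58 with median-ratio scaling and 59 with a pseudocount of 0.1, but 184 of 4019 loci without the lower limit on FPKM and 3 to 40 with 1 crab left out, lowest without crab 3. The difference in promoter peaks, −11.2 percentage points, reversed to 3.51 at the opposite end of the model and to 0.95 at single-exon models, and otherwise lay between −4.59 and −21.8, or −13.5 and −7.87 with 1 crab left out. Against EVM genes that overlap no other EVM gene, an alternative added after seeing the data, it was −9.99. Loci with a promoter peak in all 3 libraries, 48, numbered 25 with a −log10 q of at least 5 required, 23 at the opposite end, 37 and 63 with promoters of 1 and 3 kb on either side, and 48 to 81 with 1 crab left out, highest without crab 2. Loci under 1 kb from an EVM gene, 77, numbered 16 when start sites were used and 128 within 5 kb, and 73 to 83 with 1 crab left out. Ratios ranging over at least 2, at 40 loci, numbered 62 with the nearest EVM gene on the same strand, 47 with the smaller pseudocount and 3 to 31 with 1 crab left out, lowest without crab 3. The causes of these shifts were not tested. No paired analysis was possible because the series has a single stage and no groups to pair within an assay. With 3 libraries no test could pass 0.05, model starts may lie inside transcripts, and short loci rest on few reads. Which end of an added locus is its start rests on a strand of unknown source.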
